A study of Mus musculus with 35 samples.

Results

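The serpin genes measured in sorted medullary thymic epithelial cells (mTECs) of the mouse are described here by clade. Members were all annotated genes whose symbol starts with Serpin that were detected (detection p under 0.05) on at least 2 arrays of any group. Of 55 annotated family genes, read by 74 probes, 42 met this rule, among the 18090 genes tested in the series. Clade A held 17 members (of 20 annotated), clade B 16 (of 25) and clades C to I together 9 (of 10), namely Serpinc1, Serpind1, Serpine2, Serpine3, Serpinf1, Serpinf2, Serping1, Serpinh1 and Serpini1.

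Serpins are proteins of one shared fold, and most of them inhibit serine proteases. The protease cuts an exposed loop of the serpin, the loop folds into the serpin's main sheet, and the protease is dragged along and trapped. Clade A serpins are secreted and many are plasma proteins made by the liver, whereas clade B serpins lack a classical signal peptide and mostly act inside cells, many of them in squamous epithelia and leukocytes. The mTECs are known for expressing genes of many other tissues, partly under the control of Aire, which exposes developing T cells to those antigens.

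The study sorted mTECs by FACS into cells positive and negative for an antigen and hybridised their total RNA to Illumina bead arrays. Pdpn, Gp2, Cea1 and Tspan8 were stained with antibodies, and Gad1 and Ins2 were read from reporter mice. The labels call the samples of a group biological replicates and give no strain, age, sex or number of pooled animals. The 12 groups are therefore the Pdpn-, Gp2-, Gad1-, Cea1-, Ins2- and Tspan8-positive cells and their 6 negative counterparts, with no other treatment named in the labels. Each group had 3 usable arrays, except Gp2-positive and Ins2-negative cells with 2 each, so 34 arrays were compared. The gene of the sorted antigen rose in every sort, with log2 differences of 0.66 (Gad1) to 4.79 (Tspan8). Aire, Cd80, H2-Aa and Krt5 were detected on all 34 arrays, and the probe of Epcam, an epithelial adhesion gene, on 14 of them. In such bulk samples, fewer cells that express a gene and less RNA of it per cell cannot be told apart. No chip or hybridisation batch is given, so levels set side by side across sorts carry an untested batch.

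Promoters of 35 of the 42 members are in the RefSeq table used here (build GRCm38.p6), each running from 250 bases before to 50 bases after the gene's start. Those of 3 pairs from the same cluster, on which the results turn, are shown 5′ to 3′ on the strand of the gene. Capitals mark 4 motifs, each searched on both strands. The core promoter box named for its T and A letters was searched as TATAAA. The box bound by nuclear factor Y in many promoters was searched as CCAAT. The AP-1 site, common in genes of squamous epithelium, was searched as TGANTCA, where N is any base. A partial site of the liver factor HNF1 was searched as GTTAAT.
Serpina1b (chr12:103738140-103738439, minus strand): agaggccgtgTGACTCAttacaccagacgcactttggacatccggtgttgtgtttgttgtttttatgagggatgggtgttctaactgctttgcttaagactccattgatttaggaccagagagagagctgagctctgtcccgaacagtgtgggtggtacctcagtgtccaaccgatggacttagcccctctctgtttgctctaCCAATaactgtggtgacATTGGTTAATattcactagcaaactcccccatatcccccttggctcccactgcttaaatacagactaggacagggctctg
Serpina1d (chr12:103773584-103773883, minus strand): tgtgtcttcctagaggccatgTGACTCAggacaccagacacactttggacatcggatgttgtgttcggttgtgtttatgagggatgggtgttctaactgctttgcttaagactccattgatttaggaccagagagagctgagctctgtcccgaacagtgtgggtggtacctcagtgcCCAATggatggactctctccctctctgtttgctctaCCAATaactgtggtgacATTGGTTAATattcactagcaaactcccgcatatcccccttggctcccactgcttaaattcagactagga
Serpina11 (chr12:103989908-103990207, minus strand): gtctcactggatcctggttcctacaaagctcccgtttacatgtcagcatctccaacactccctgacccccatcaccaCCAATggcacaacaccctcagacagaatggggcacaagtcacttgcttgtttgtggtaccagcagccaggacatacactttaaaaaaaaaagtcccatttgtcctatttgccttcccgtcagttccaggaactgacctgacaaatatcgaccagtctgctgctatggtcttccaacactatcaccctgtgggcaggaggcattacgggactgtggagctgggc
Serpina12 (chr12:104044394-104044693, minus strand): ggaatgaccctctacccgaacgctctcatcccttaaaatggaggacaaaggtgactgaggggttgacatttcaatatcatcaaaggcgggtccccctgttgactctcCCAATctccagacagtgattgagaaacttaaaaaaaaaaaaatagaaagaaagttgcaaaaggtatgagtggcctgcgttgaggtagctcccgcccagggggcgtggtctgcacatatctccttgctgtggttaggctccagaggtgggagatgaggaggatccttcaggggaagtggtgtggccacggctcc
Serpinb11 (chr1:107362064-107362363, plus strand): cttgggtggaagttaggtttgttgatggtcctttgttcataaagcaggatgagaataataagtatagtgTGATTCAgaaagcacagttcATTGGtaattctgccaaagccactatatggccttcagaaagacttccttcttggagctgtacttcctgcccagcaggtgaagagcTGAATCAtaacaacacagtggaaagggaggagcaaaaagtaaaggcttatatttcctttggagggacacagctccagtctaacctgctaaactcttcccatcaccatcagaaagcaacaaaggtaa
Serpinb2 (chr1:107511173-107511472, plus strand): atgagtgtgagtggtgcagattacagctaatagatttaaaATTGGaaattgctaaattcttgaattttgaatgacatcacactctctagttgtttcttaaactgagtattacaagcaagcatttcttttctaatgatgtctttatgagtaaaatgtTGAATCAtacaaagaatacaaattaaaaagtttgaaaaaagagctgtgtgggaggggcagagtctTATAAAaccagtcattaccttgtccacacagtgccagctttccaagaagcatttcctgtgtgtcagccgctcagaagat
Serpina1b and Serpina1d, paralogous antitrypsin genes, matched at 271 of 300 bases (90.3%) in a global alignment with gaps. A CCAAT box on the other strand and the partial HNF1 site overlap by 1 base in both. The partial HNF1 site was in 7.2% of all 27025 promoters searched and in 22.9% of the 35 member promoters. It was in 6 of 14 clade A promoters, including those of Serpina1a to Serpina1e, and in 2 of 13 of clade B. The promoters of Serpina1a to Serpina1e matched each other at 76.3% to 93.0% of bases and are not independent cases. AP-1 letters stood in 7.93% of all promoters and in 25.7% of the members', 4 of 14 in clade A and 5 of 13 in clade B. Serpinb11 held 2 matches and Serpinb2 held 1. The clade A carriers were Serpina1a to Serpina1d, whose promoters matched each other at 88.3% to 93.0% of bases and are not independent cases. TATA boxes were found in 14.2% of all and 25.7% of member promoters, 3 of 14 in clade A and 6 of 13 in clade B. CCAAT boxes were in 37.9% and 42.9%, with 10 of 14 in clade A, again including Serpina1a to Serpina1e, and 3 of 13 in clade B. Serpina11 and Serpina12 each held 1 CCAAT box and none of the other 3 motifs, and their promoters matched at 47.3% of bases. Serpinb11 and Serpinb2, of one cluster as well, matched at 47.7%, and Serpina11 and Serpinb11, of different clades, at 47.3%. A match is a description of letters, and binding of any factor was not measured.

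Across the 6 sorts, 38 of the 42 members were higher or lower in at least 1 sort at an adjusted p under 0.05, and 4 (9.52%) in none, against 24.4% of all genes in none. Of the 252 pairs of a member and a sort, 145 passed the test, and in 141 of these the positive and negative arrays did not overlap. The share of all genes that passed, in either direction, is given below for each sort. Overlap of arrays was not counted over all genes, so the 141 pairs have no background and do not set serpins apart from other called genes. Members called higher in some sorts and lower in others numbered 21 (50%, background 26.5%), and 10 (23.8%) were called each way in at least 2 sorts, against 5.28% of all genes. The 6 differences of a gene were unequal for 31 members (73.8%) by the F test, against 61.5% of all genes. Higher in at least 4 sorts were 11 members (26.2%, background 8.33%). Lower in at least 4 sorts were 5 (11.9%), which is the background share of 11.8%. In all 6 sorts, 6 members (14.3%) were called, against 4.44% of all genes.

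**Figure D1:**
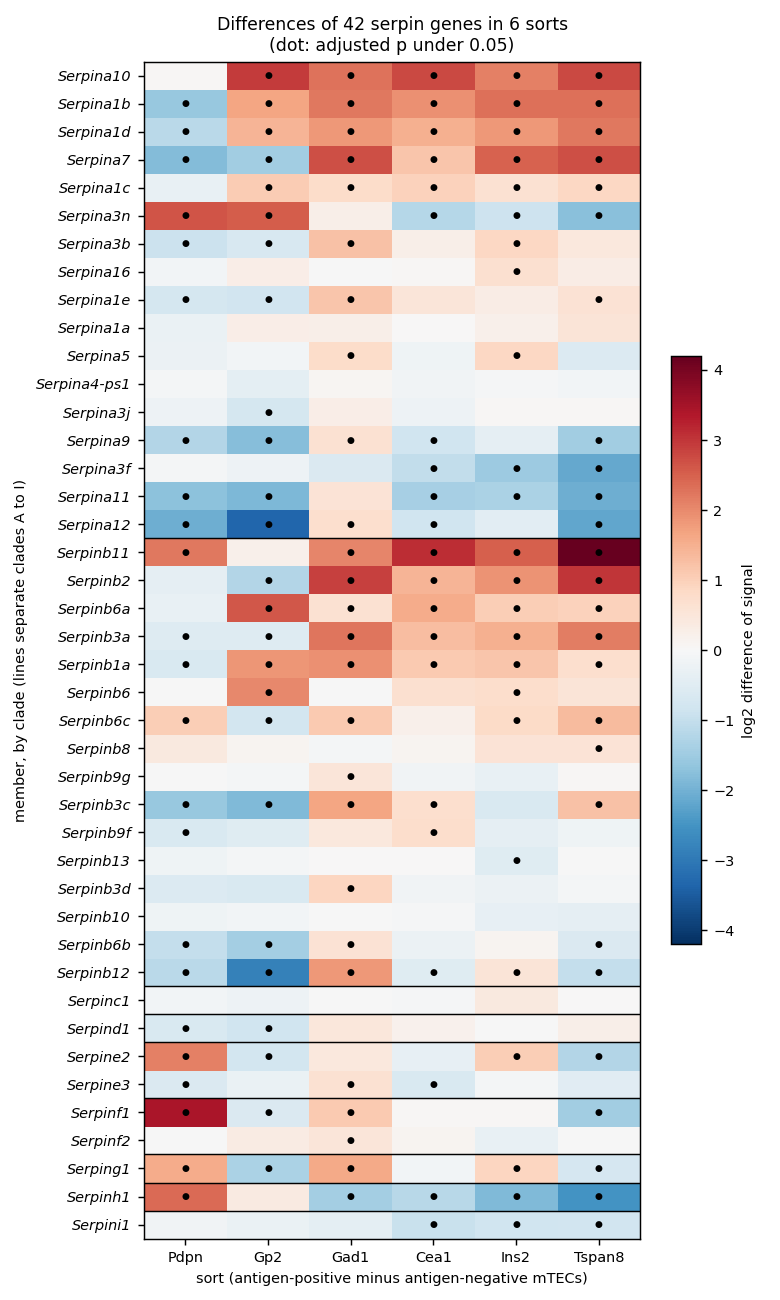
Log2 difference, positive minus negative cells, of 42 serpin genes (rows, by clade, lines between clades A to I) in 6 sorts (columns), from blue (lower) to red (higher), with a dot where the adjusted p was under 0.05. The Gad1 column holds 25 higher members and 1 lower, and the Pdpn and Gp2 columns hold 16 and 17 lower members.

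In the Gad1 reporter sort most members were higher. There 25 of 42 members were higher (59.5%) and 1 was lower (2.38%), where 19.2% of all genes were higher and 19.2% lower (38.4% in either direction). The median log2 difference was 0.70 in clade A, 0.76 in clade B and 0.46 in the other clades, against -0.01 over all genes. In clade A 10 of 17 and in clade B 11 of 16 members rose, with none lower in either, and in the other clades 4 rose and 1 fell. Over all 55 annotated genes, without the detection filter, 24 were higher and 2 lower.

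The Ins2 reporter sort followed with 18 members higher and 6 lower (42.9% and 14.3%), where 16.8% and 17.7% of all genes were (34.5% in either direction). Clade A (median 0.30, 8 higher and 3 lower) and clade B (0.57, 8 and 1) both lay above 0, and the other clades did not (-0.01, 2 and 2). This split depends on the scaling. With median scaling, which moved the median of all genes to -0.25 in this sort, 9 members were higher and 9 lower. Fitted on its own arrays, the sort gave 15 calls in place of 24. The Ins2-negative group has 2 arrays.

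Cea1 and Tspan8 divided the clades. In the Cea1 sort 12 members were higher (28.6%, background 13.4%) and 9 lower (21.4%, background 15.6%, 29.0% in either direction). Clade B had 7 higher and 1 lower with a median of 0.43, clade A had 5 and 5 with a median of 0.02, and the other clades 0 and 3 with a median of -0.11. In the Tspan8 sort 14 members were higher (33.3%, background 19.2%) and 12 lower (28.6%, background 23.8%, 43% in either direction). Here clade B had 8 higher and 2 lower (median 0.56), clade A 6 and 5 (0.30), and the other clades 0 and 5 (-0.70).

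Pdpn and Gp2 ran the other way. In Pdpn-positive cells 7 members were higher (16.7%, near the background of 18.2%) and 16 lower (38.1%, background 19.1%, 37.3% in either direction). Clade A accounted for 8 of the lower members and 1 of the higher (median -0.31), clade B for 6 and 2 (-0.34), and the other clades for 2 and 4 (-0.01). In Gp2-positive cells 8 were higher (19.0%, background 18.0%) and 17 lower (40.5%, background 21.0%, 39% in either direction). Clade A had 5 higher and 7 lower (-0.23), clade B 3 and 6 (-0.30), and the other clades 0 and 4 (-0.27). The clade A median of the Gp2 sort hung on its few arrays: it was -0.43 without Gp2-negative replicate 1, -0.02 without Gp2-positive replicate 1 and -0.62 without replicate 2. Without Gp2-positive replicate 1 the sort had 9 higher and 12 lower members. Clades were described by counts and medians, and no test between clades was made. The clade medians were smaller without background correction (0.28, 0.46 and 0.14 for clades A, B and the others in Gad1) and over all annotated genes (0.08 for clade B in Gad1 and -0.0016 in Tspan8).

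**Figure D2:**
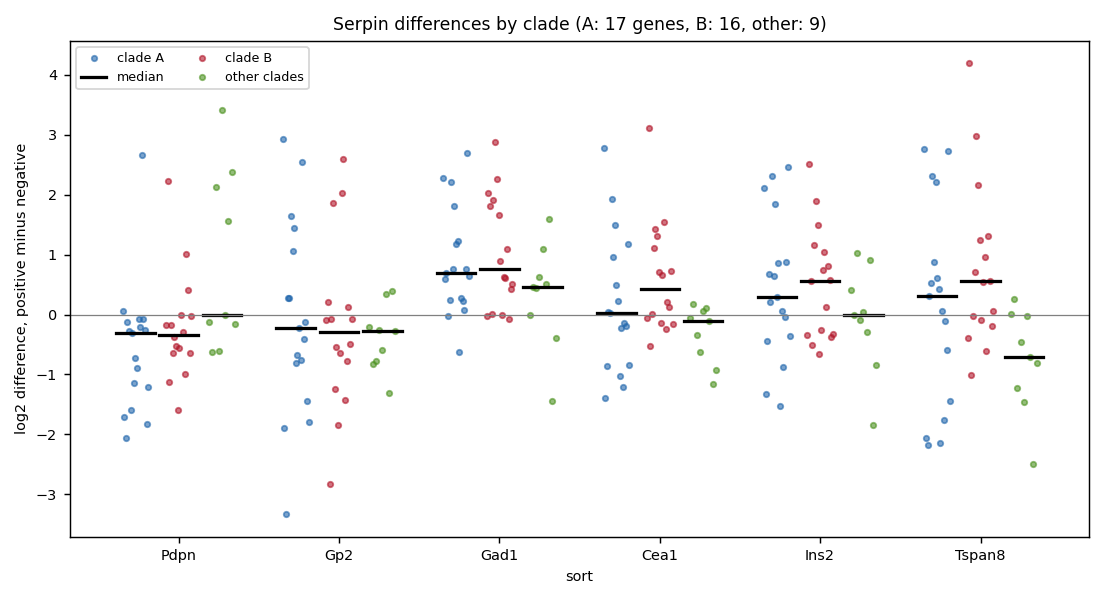
Log2 difference of each member in each sort, by clade (A blue, B red, C to I green), with the clade's median as a black bar and a grey line at 0. Clade medians are 0.46 to 0.76 in the Gad1 sort, and in the Tspan8 sort clade B (0.56) and the other clades (-0.70) lie on opposite sides of 0.

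Of clade B, Serpinb11, an epithelial serpin also called epipin, had the largest difference among the 252 pairs of member and sort. On the Tspan8-positive arrays its log2 signal was 12.28, 12.34 and 12.37, and on the negative ones 8.06, 8.16 and 8.18. On the Cea1-positive arrays it was 11.43, 11.51 and 11.62 against 8.32, 8.36 and 8.55. On the Ins2 reporter-positive arrays it was 10.34, 11.03 and 11.38 against 8.25 and 8.56. Positive and negative arrays were far apart in all 3 sorts. The Pdpn-positive arrays gave 11.14, 11.54 and 11.56 against 9.10, 9.22 and 9.23. The Gad1 reporter-positive arrays gave 9.91, 9.94 and 10.08 against 7.71, 7.96 and 8.16. Gp2-positive cells, at 9.39 and 9.45 against 9.11, 9.25 and 9.28, differed by 0.21 and did not pass the test (adjusted p = 0.38). The fold differences were 18.3 in the Tspan8 sort (95% interval 14.7 to 22.8, adjusted p = 8.8e-21), 8.64 in Cea1, 5.71 in Ins2 and 4.10 in Gad1, and the log2 difference in Pdpn was 2.23 (adjusted p = 1.8e-13).

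Ordered by mean signal, the 6 positive groups filled the first 6 of 12 places for Serpinb11. Tspan8-positive cells (12.33 ± 0.04, SD, n = 3) stood clear of the rest. Cea1-, Pdpn- and Ins2-positive cells followed (11.52, 11.41 and 10.92) with neighbouring ranges that overlapped, then Gad1-positive (9.98 ± 0.09) and Gp2-positive cells (9.42 ± 0.04, n = 2). Among the negative groups, Gp2- and Pdpn-negative cells (9.21 and 9.18) overlapped above Cea1- and Ins2-negative cells (8.41 and 8.40), and Tspan8- and Gad1-negative cells were last (8.14 and 7.94). Over the 12 group means the named members most like Serpinb11 were Serpinb2 (Pearson r = 0.81), Serpina10 (0.76), Serpinb3a (0.73), Serpinb6c (0.68) and Serpina1b (0.67), and the least like was Serpini1 (-0.87). The 12 points share the contrast of positive with negative cells.

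**Figure D3:**
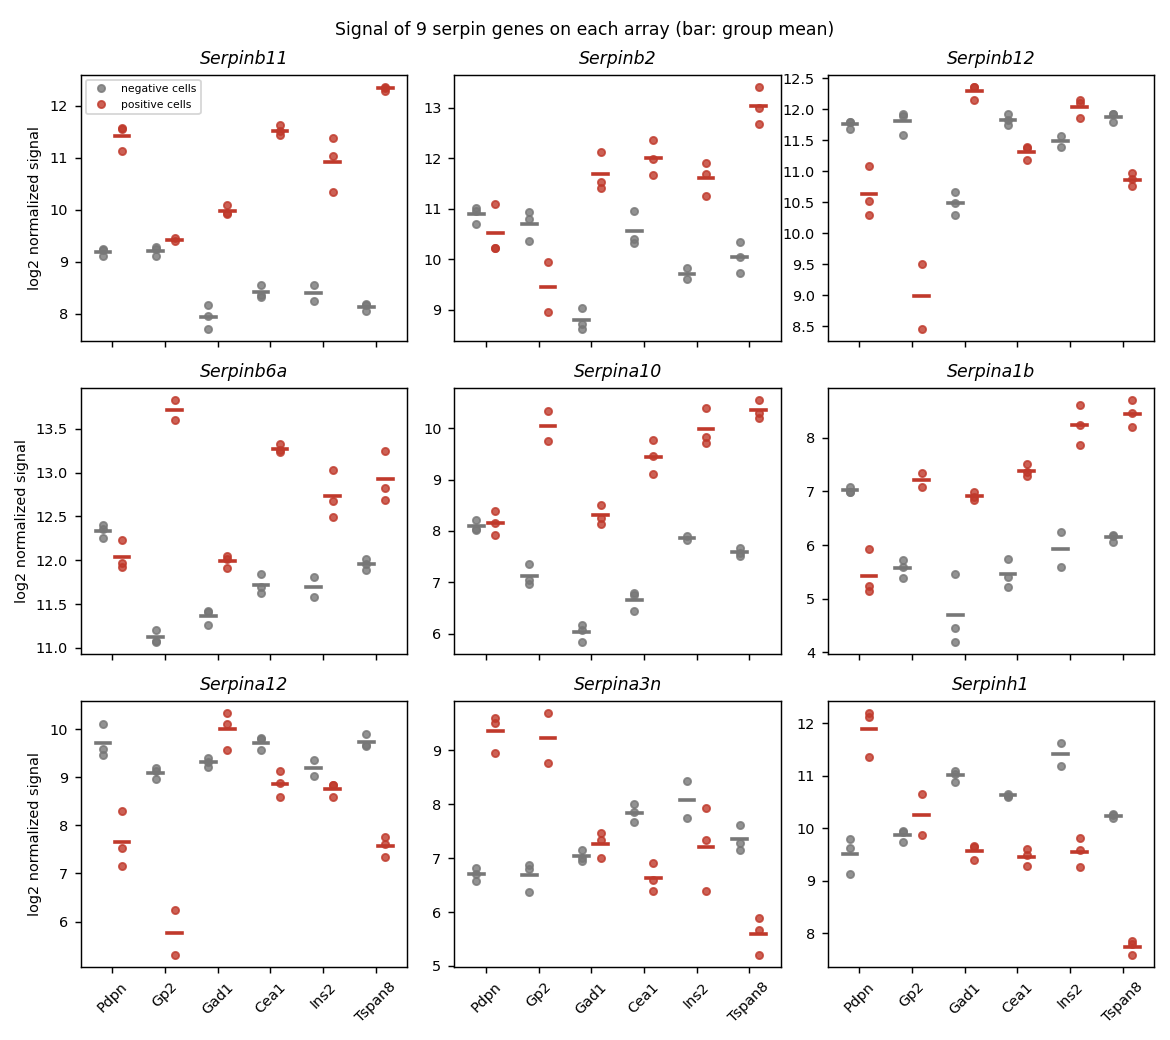
Log2 normalized signal of 9 serpin genes on each of 34 arrays, by sort (x axis), with negative cells in grey, positive cells in red and the group mean as a bar. For Serpinb11 the red points lie above the grey ones in each sort, from 9.39 to 12.37 against 7.71 to 9.28.

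Serpinb11 lies in a run of 12 clade B genes on chromosome 1, 9 of them members, of which it was the one higher in the Pdpn sort, where 3 were lower. Serpinb2, the plasminogen activator inhibitor of this clade, was at 12.68, 13.00 and 13.41 on the Tspan8-positive and 9.73, 10.04 and 10.35 on the negative arrays. In the Gad1 sort it was at 11.40, 11.52 and 12.11 against 8.63, 8.72 and 9.04. These are 7.93-fold (adjusted p = 2.4e-12) and 7.38-fold (adjusted p = 1.4e-11) increases without overlap. Rises of 1.90 in the Ins2 and 1.43 in the Cea1 sort also passed the test, and the Pdpn difference of -0.38 did not (adjusted p = 0.26). In the Gp2 sort it fell by 1.24 (adjusted p = 0.0004), a call lost without Gp2-positive replicate 1 (-0.74, adjusted p = 0.075).

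Serpinb3a, a mouse counterpart of the human squamous cell carcinoma antigens, rose in the same 4 sorts as Serpinb2. Its log2 differences were 2.26 in Gad1, 2.16 in Tspan8, 1.49 in Ins2 and 1.31 in Cea1. A second, dimmer Serpinb3a probe passed with 0.93 in Cea1, 0.90 in Tspan8 and 0.67 in Ins2, and not in Gad1 (0.25, adjusted p = 0.46), Pdpn (-0.16) or Gp2 (-0.35). The first probe's falls in Pdpn (-0.53) and Gp2 (-0.55) were small and rested on single arrays: the adjusted p was 0.062 without Pdpn-negative replicate 1, 0.053 without Pdpn-positive replicate 1, 0.057 without Gp2-negative replicate 1, 0.059 without Gp2-negative replicate 3 and 0.44 without Gp2-positive replicate 2 (-0.27). Without Gp2-positive replicate 1 the fall was -0.83. The paralogue Serpinb3c parted from it in the Ins2 sort, where its difference was -0.65 (adjusted p = 0.075). It rose in Gad1 (1.66) and Tspan8 (1.24) and fell in Pdpn (-1.59) and Gp2 (-1.84), where 2 of 3 and 1 of 2 positive arrays detected it. Its rise in Cea1 (0.72, adjusted p = 0.031) missed the threshold without any of 5 arrays, at 0.073, 0.079 and 0.051 without Cea1-negative replicates 1, 2 and 3, and 0.059 and 0.11 without Cea1-positive replicates 1 and 2. Whether the probes of the Serpinb3 paralogues bind each other's transcripts was not tested.

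Serpinb12, an inhibitor of trypsin-like proteases, was called in all 6 sorts and in both directions. In the Gp2 sort its signal was 8.46 and 9.50 on the positive and 11.60, 11.90 and 11.93 on the negative arrays. In the Gad1 sort it was the reverse, at 12.15, 12.36 and 12.37 against 10.30, 10.49 and 10.66. The Gp2 difference was a 7.08-fold decrease (adjusted p = 2.8e-14) and the Gad1 difference a 3.50-fold increase (adjusted p = 9.6e-11), and no arrays overlapped in either. It fell by 1.12 in Pdpn and by 1.01 in Tspan8. In Cea1 it fell by 0.52 (adjusted p = 0.017), with an adjusted p of 0.062 without Cea1-negative replicate 2 and 0.080 without Cea1-positive replicate 3. In Ins2 it rose by 0.56 (adjusted p = 0.019), and with median scaling the difference was -0.05 (adjusted p = 0.85). That Ins2 call also missed the threshold without Ins2-negative replicate 1 (0.16), Ins2-positive replicate 2 (0.051) or Ins2-positive replicate 3 (0.065). By mean signal, Gp2-positive cells were the lowest of the 12 groups (8.98 ± 0.73, SD, n = 2), below Gad1-negative cells (10.49 ± 0.18, n = 3) without overlap.

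The clade B members on chromosome 13, 6 of 17 genes in that cluster, include serpins of leukocyte granule and lysosomal proteases. Serpinb6a, which inhibits cathepsin G and related proteases, had its largest rise in Gp2-positive cells, at 13.60 and 13.83 against 11.07, 11.08 and 11.21. This was a 6.05-fold difference (95% interval 5.01 to 7.32, adjusted p = 8.2e-17). It also rose by 1.55 in Cea1, 1.04 in Ins2, 0.97 in Tspan8 and 0.63 in Gad1, and its Pdpn difference of -0.30 was at the threshold (adjusted p = 0.051). With the replicate number as a block that fall passed (adjusted p = 0.021), and it is the 1 member this adds in the sort. With median scaling the Ins2 rise was 0.38 (adjusted p = 0.085). Serpinb1a, the leukocyte elastase inhibitor, stood at 12.68 and 12.92 on the Gp2-positive and 10.81, 10.94 and 11.07 on the negative arrays. It rose in 5 sorts, by 1.91 in Gad1, 1.86 in Gp2, 1.16 in Ins2, 1.10 in Cea1 and 0.71 in Tspan8, and fell by 0.64 in Pdpn (adjusted p = 0.00044).

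A probe that the platform names Serpinb6, with no chromosome assigned here, moved with Serpinb6a in the Gp2 sort. It was at 6.92 and 7.20 against 4.63, 5.06 and 5.40, a 4.09-fold rise (adjusted p = 4.5e-07). Which transcript of the Serpinb6 genes it reads was not tested. Its rise in Ins2 (0.75, adjusted p = 0.040) was lost in 3 of 5 fits that left out an array, at 0.15 and 0.13 without Ins2-negative replicates 1 and 3 and 0.16 without Ins2-positive replicate 2, and with the replicate number as a block (0.17). Serpinb6c, a further paralogue, rose in Tspan8 (1.31), Gad1 (1.09) and Pdpn (1.02). Serpinb6c fell in Gp2 (-0.78, adjusted p = 0.0090), and that call did not hold without Gp2-negative replicate 3 (-0.55, adjusted p = 0.085), without Gp2-positive replicate 2 (adjusted p = 0.079) or with the replicate block (adjusted p = 0.11). Its rise in Ins2 (0.81, adjusted p = 0.0077) was at 0.15 without Ins2-negative replicate 1 and 0.055 without Ins2-positive replicate 1, and 0.64 with median scaling (log2 difference 0.16).

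**Figure D4:**
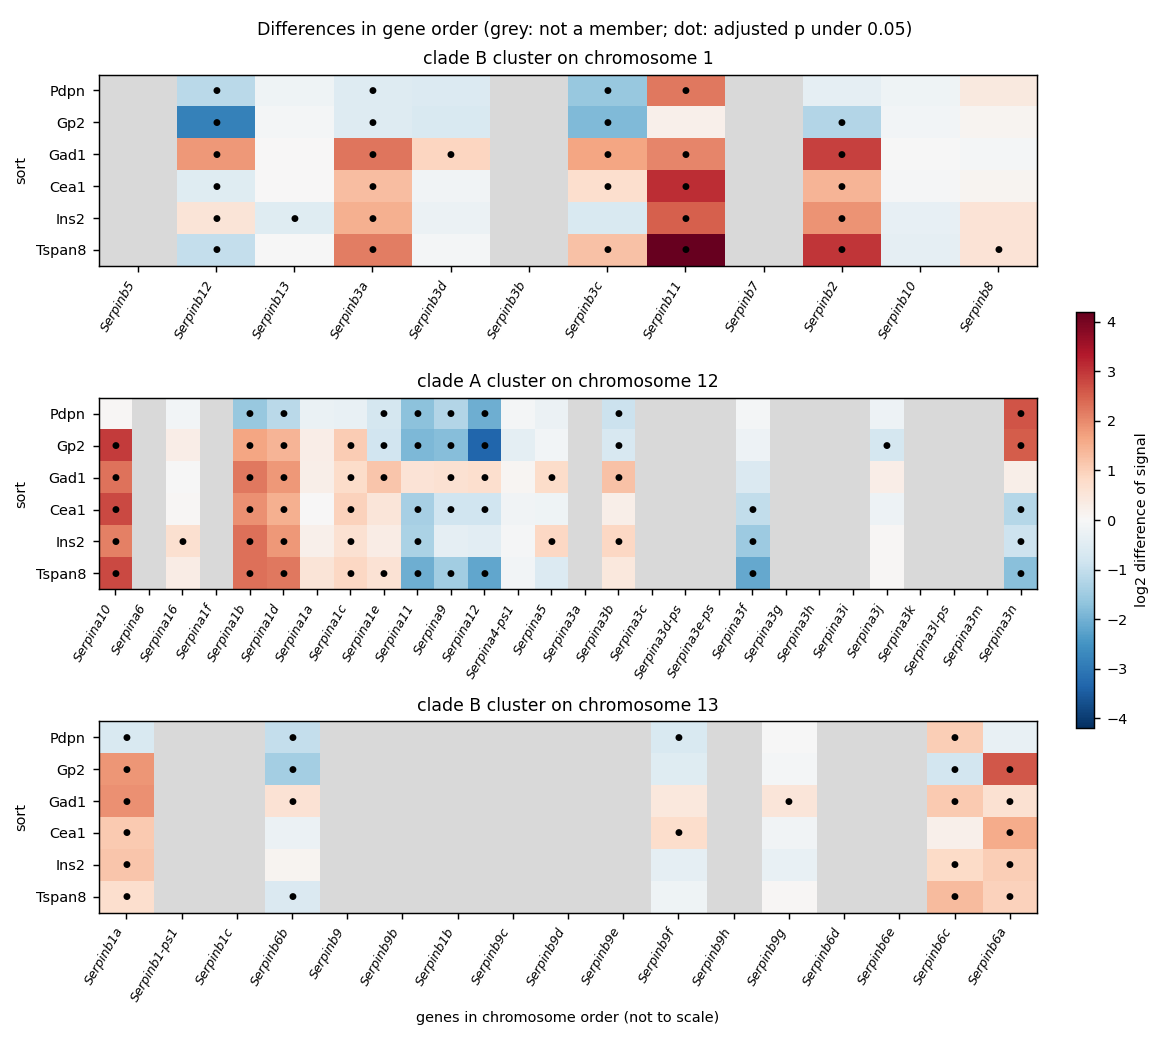
Log2 differences of the serpin genes of 3 clusters in chromosome order (x axis, not to scale) in 6 sorts (y axis), grey where a gene is no member, with a dot where the adjusted p was under 0.05. In the cluster on chromosome 12 the neighbours Serpina11, Serpina9 and Serpina12 are blue in the Pdpn, Gp2, Cea1 and Tspan8 rows, while Serpina1b and Serpina1d to their left are blue in the Pdpn row and red in the other 5, and Serpina3n lies at the right end.

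Of clade A, 16 members lie in a run of 28 serpin genes on chromosome 12, and neighbours there went opposite ways. Serpina10, the protein Z-dependent inhibitor of coagulation factor X, was higher in every sort but Pdpn. Its signal was 10.19, 10.30 and 10.55 on the Tspan8-positive and 7.52, 7.57 and 7.66 on the negative arrays. On the Gp2-positive arrays it was 9.74 and 10.34 against 6.96, 7.04 and 7.35. In the Pdpn sort, 7.92, 8.15 and 8.39 stood beside 8.02, 8.03 and 8.22. The first pairs of groups were well apart and the Pdpn groups overlapped. The increases were 7.59-fold in Gp2 (adjusted p = 4e-14), 6.87-fold in Cea1, 6.79-fold in Tspan8, 4.84-fold in Gad1 and 4.33-fold in Ins2. The Pdpn difference was 0.06 (adjusted p = 0.84, fold interval 0.815 to 1.34).

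The antitrypsin genes of the same cluster, inhibitors of neutrophil elastase in their human counterpart, differed among themselves. Serpina1b was at 7.08 and 7.35 on the Gp2-positive and 5.38, 5.60 and 5.72 on the negative arrays. In the Ins2 sort it was at 7.86, 8.23 and 8.62 against 5.60 and 6.24. In the Pdpn sort the order turned, with 5.14, 5.23 and 5.92 against 6.99, 7.00 and 7.08. It rose by 2.32 in Ins2, 2.31 in Tspan8, 2.21 in Gad1 (where 1 of 3 negative arrays detected it), 1.94 in Cea1 and 1.65 in Gp2 on the log2 scale, and fell by 1.59 in Pdpn (adjusted p = 2.3e-06). Its other probes had the same sign in all 6 sorts.

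Serpina1d followed it in all 6 sorts, from 2.21 in Tspan8 and 1.84 in Ins2 to -1.14 in Pdpn. In the Gad1 sort, where no negative array detected Serpina1d, its fitted log2 difference was 1.82. Over 12 group means Serpina1b and Serpina1d correlated at 0.94 (Pearson). Serpina1c rose in 5 sorts by smaller amounts (1.07 in Gp2, 0.97 in Cea1, 0.87 in Tspan8, 0.64 in Ins2, and at least 1.55-fold in Gad1). Its Ins2 call (adjusted p = 0.018) was at 0.069 and 0.10 without Ins2-negative replicates 1 and 3, and at 0.14 without Ins2-positive replicate 3, where the difference was 0.42. Serpina1e parted from them in Gp2-positive cells, where neither array detected it and it was at least 1.54-fold lower (adjusted p = 0.0058). It also fell in Pdpn (-0.73) and rose in Gad1 (1.18). In Tspan8 its rise (0.61, adjusted p = 0.017) came from arrays that overlapped and was lost without Tspan8-negative replicate 3 (0.062), Tspan8-positive replicate 1 (0.14) or replicate 3 (0.071). Serpina1a passed the test in no sort, its nearest being Tspan8 (0.53, adjusted p = 0.067). The transcripts of these paralogues are closely similar, and whether a probe reads more than its own gene was not tested.

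Serpina11, Serpina9 and Serpina12 follow the antitrypsin genes on the chromosome and fell together in the Pdpn, Gp2, Cea1 and Tspan8 sorts. Serpina12 (vaspin, an adipokine that inhibits kallikrein 7) was at 5.30 and 6.23 on the Gp2-positive and 8.96, 9.14 and 9.20 on the negative arrays. On the Tspan8-positive arrays it was at 7.33, 7.60 and 7.75 against 9.66, 9.67 and 9.90, and on the Pdpn-positive at 7.16, 7.53 and 8.30 against 9.46, 9.59 and 10.10. None of these groups overlapped. The decreases were 10.1-fold in Gp2 (95% interval 7.10 to 14.2, adjusted p = 3.9e-13), 4.52-fold in Tspan8, 4.16-fold in Pdpn and 1.81-fold in Cea1. That interval rests on the spread pooled over all groups, and the 2 Gp2-positive arrays alone had an SD of 0.65. Its Gad1 rise (0.70, adjusted p = 0.011) was lost without Gad1-positive replicate 2 (0.091). A second Serpina12 probe hardly moved, with -0.25 in Gp2 and -0.01 in Pdpn, and had the opposite sign in Cea1 (0.03) and Tspan8 (0.04), so the gene's changes rest on 1 of its 2 probes.

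Serpina11 fell by 2.05 in Tspan8, 1.71 in Pdpn, 1.40 in Cea1 and 1.32 in Ins2. No Gp2-positive array detected it, and there it was at least 3.42-fold lower (adjusted p = 7.2e-07). It was above background on 2 of 3 positive arrays in both the Cea1 and the Ins2 sort. Its other probe fell less, from -0.24 to -1.42 in these 5 sorts. Serpina9, known in human germinal centre B cells as centerin, fell by 1.79 in Gp2, 1.45 in Tspan8, 1.22 in Pdpn and 0.84 in Cea1. The Cea1 call was at 0.051 without Cea1-positive replicate 3. Its Gad1 rise (0.65, adjusted p = 0.043) did not hold without Gad1-negative replicate 1 (0.31, adjusted p = 0.39) or Gad1-positive replicate 2 (0.16) or 3 (0.090). Over 12 group means Serpina9 correlated with Serpina12 at 0.97 and with Serpina11 at 0.93.

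Serpina7, thyroxine-binding globulin, carries hormone and inhibits no protease. It was called in all 6 sorts, with 10.39, 10.50 and 10.57 on the Tspan8-positive against 7.54, 7.80 and 7.95 on the negative arrays. In the Pdpn sort it was at 7.12, 7.22 and 7.48 against 8.88, 9.17 and 9.28. Positive cells were thus above in one sort and below in the other. It rose 6.60-fold in Tspan8, 6.47-fold in Gad1, 5.51-fold in Ins2 and 2.26-fold in Cea1, and fell 3.57-fold in Pdpn and 2.73-fold in Gp2. A second, dimmer Serpina7 probe gave smaller log2 differences of the same sign, 1.44 in Tspan8, 1.22 in Ins2, 1.05 in Cea1 and -0.86 in Pdpn, and it did not pass in Gad1 (0.23, adjusted p = 0.64) or Gp2 (-0.31, adjusted p = 0.56). It lies on another chromosome than Serpinb2 and Serpinb3a, with which it correlated at 0.92 and 0.94 over the group means.

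The antichymotrypsin-like genes at the far end of the cluster had other patterns. Serpina3n, an inhibitor of granzyme B in the mouse, was at 8.95, 9.51 and 9.60 on the Pdpn-positive and 6.57, 6.71 and 6.81 on the negative arrays. In the Gp2 sort it was at 8.77 and 9.69 against 6.37, 6.80 and 6.88. In the Tspan8 sort it was lower, at 5.20, 5.67 and 5.89 against 7.15, 7.27 and 7.62. It rose by 2.66 in Pdpn (adjusted p = 5.5e-10) and by 2.54 in Gp2 (adjusted p = 1.1e-08) on the log2 scale, and fell by 1.76 in Tspan8 and by 1.21 in Cea1. In Ins2 its arrays overlapped, and the fall (-0.87, adjusted p = 0.021) was lost without Ins2-negative replicate 3 (-0.53, adjusted p = 0.32) or Ins2-positive replicate 1 (-0.45, adjusted p = 0.23). Serpina3f fell by 2.14 in Tspan8, 1.53 in Ins2 and 1.03 in Cea1. Serpina3b fell in Pdpn (-0.89) and rose in Gad1 (1.23). Its Ins2 rise (0.86, adjusted p = 0.0060) was at 0.075 without Ins2-negative replicate 3. No Gp2-positive array detected Serpina3b, which was at least 1.5-fold lower there (adjusted p = 0.028), a call lost without Gp2-negative replicate 2 (0.13) or Gp2-positive replicate 1 (-0.35, adjusted p = 0.42).

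Among the other clades, 4 members rose in Pdpn-positive cells, Serpinf1, Serpinh1, Serpine2 and Serping1. Serpinf1, pigment epithelium-derived factor, which is not a protease inhibitor, was at 10.63, 11.09 and 11.19 against 7.44, 7.48 and 7.74. Serpinh1, the endoplasmic reticulum chaperone of collagen, was at 11.36, 12.11 and 12.19 against 9.13, 9.61 and 9.79. Serpine2, protease nexin-1 and an inhibitor of thrombin, was at 10.47, 10.74 and 10.97 against 8.41, 8.65 and 8.76. Each of the 3 stood clear of its negative arrays. The log2 differences were 3.42 for Serpinf1 (adjusted p = 1.2e-15), 2.38 for Serpinh1 (adjusted p = 1.7e-12), 2.12 for Serpine2 (adjusted p = 4.4e-11) and 1.56 for Serping1, the inhibitor of complement C1 (adjusted p = 3.4e-08). A second Serpinf1 probe differed by 0.11, and second probes of Serpinh1 and Serping1 by 1.75 and 1.52. Markers of fibroblasts moved with these genes. Of a list of fibroblast and pericyte genes, 7 of 10 were higher in Pdpn-positive cells, including Dcn and Pdgfra, and none lower. Of all genes 18.2% were higher. Its pericyte genes Rgs5 (-0.15), Pdgfrb (-0.11) and Cspg4 (-0.07) did not pass. All 10 were detected on every positive array and 8 on every negative array. The summed signal of the list was 7384 to 11327 against 1783 to 2006. The part of these cells in the serpin differences was not tested.

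These 4 serpins all fell in Tspan8, and in Gad1 and Gp2 Serpinh1 parted from the rest. Serpinh1 fell in the 4 sorts in which Serpinb2 and Serpinb3a rose, and was at 7.58, 7.79 and 7.86 on the Tspan8-positive against 10.19, 10.24 and 10.28 on the negative arrays. The decreases were 5.64-fold in Tspan8 (adjusted p = 1.3e-13), 3.60-fold in Ins2, 2.71-fold in Gad1 and 2.24-fold in Cea1, and the Gp2 difference of 0.39 did not pass (adjusted p = 0.13). The second Serpinh1 probe fell by 1.23 in Gad1 and by 1.13 in Cea1, but its differences in Ins2 (-0.76, adjusted p = 0.09) and Tspan8 (-0.60, adjusted p = 0.12) did not pass, and in Gp2 it rose by 0.96 (adjusted p = 0.025). Over the 12 group means Serpinh1 correlated with Serpinb3a at -0.85 and with Serpina7 at -0.84. Serping1 rose in Gad1 (1.59) and fell in Tspan8 (-0.70) and Gp2 (-1.32, or -0.78 without Gp2-positive replicate 1). Its Ins2 rise (0.91) was at an adjusted p of 0.060 without Ins2-negative replicate 1 and 0.46 with median scaling (0.22). Serpinf1 rose in Gad1 (1.09) and fell in Tspan8 (-1.46). Its second probe hardly moved there (0.03 and -0.19), so the changes of Serpinf1 rest on 1 of its 2 probes.

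Serpine2 rose in Ins2 (1.02, or 0.35 with median scaling, adjusted p = 0.22) and fell in Tspan8 (-1.22). The Gp2 falls of Serpine2 (-0.78) and Serpinf1 (-0.60) rested on Gp2-positive replicate 1, without which they were -0.18 (adjusted p = 0.56) and -0.32 (adjusted p = 0.39). Without replicate 2 the Serpine2 difference was -1.38. The Serpinf1 call was also at 0.053 and 0.085 without Gp2-negative replicates 1 and 2, and its second probe had the opposite sign (0.24). Serpini1, neuroserpin, an inhibitor of tissue plasminogen activator, fell by 0.93 in Cea1 and 0.80 in Tspan8. Its Ins2 fall of 0.84 was lost without Ins2-negative replicate 1 (adjusted p = 0.19). Over the group means Serpine2 correlated with Serpinf1 at 0.93 and with Serping1 at 0.90.

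**Figure D5:**
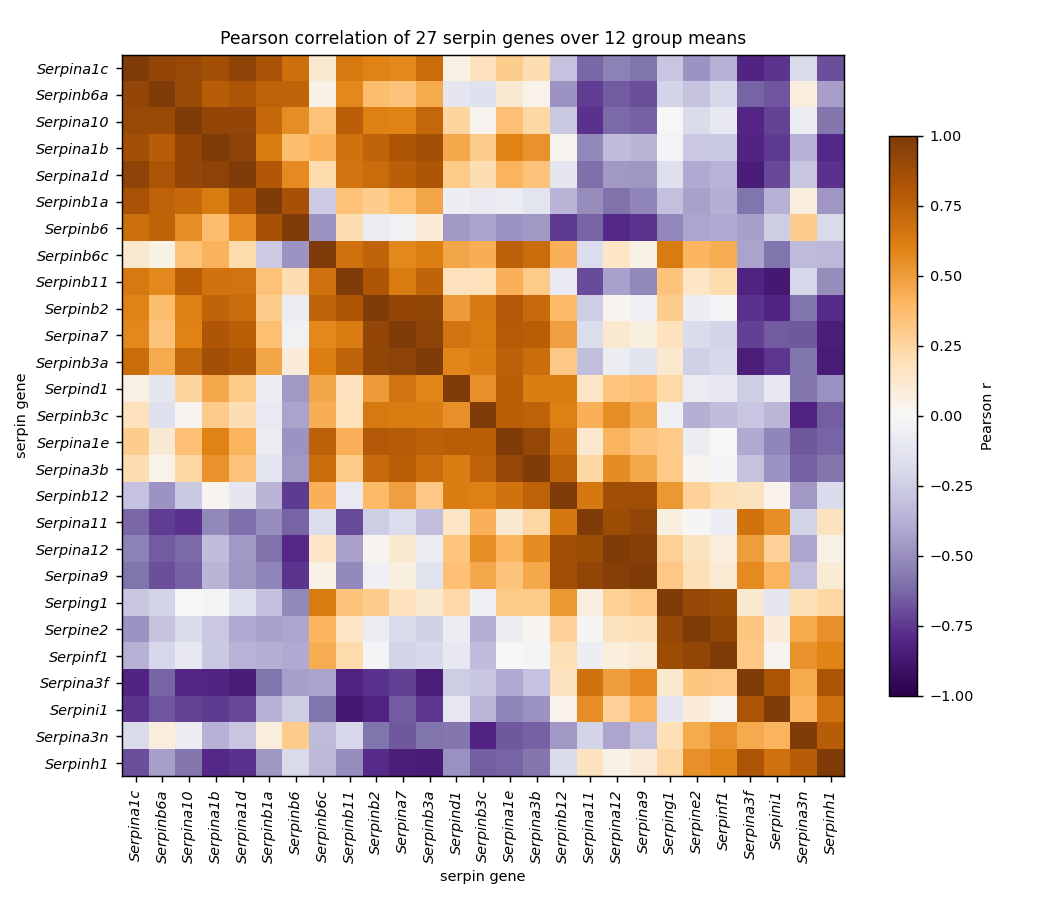
Pearson correlation between 27 serpin genes that were named and called in at least 1 sort, over 12 group means, ordered by likeness. Brown blocks join Serpina9, Serpina11 and Serpina12 (0.93 and 0.97 with Serpina9) and Serpine2, Serpinf1 and Serping1 (0.93 and 0.90 with Serpine2), and purple joins Serpinh1 with Serpinb3a (-0.85).

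Serpinc1 (antithrombin, the main inhibitor of thrombin) passed the test in no sort, with differences from -0.20 to 0.41. Serpind1 (heparin cofactor II, also a thrombin inhibitor) was at least 1.5-fold lower in Gp2-positive cells, where neither array detected it. Its fall in Pdpn (-0.63, adjusted p = 0.0099) missed the threshold without Pdpn-negative replicate 1 (0.061), Pdpn-positive replicate 2 (0.050) or Pdpn-positive replicate 3 (0.057). Serpina4-ps1 and Serpinb10 also passed in no sort, with Serpinb10 (bomapin) nearest in Tspan8 (-0.39, adjusted p = 0.058). The remaining 11 members had 18 calls of 0.51 to 1.43 in size. Serpinb6b had 4 of them (-1.43 in Gp2, -0.99 in Pdpn, -0.61 in Tspan8 and 0.61 in Gad1, the last with overlapping arrays). The Gp2-positive libraries also carried markers of other thymic cells. There all 11 measured thymocyte genes and 7 of 8 cortical epithelial genes were higher, against 18.0% of all genes. The summed signals were 16355 and 21415 against 1161 to 3828 for thymocyte genes. For cortical genes they were 41654 and 46677 against 11510 to 13369. The part of these cells in the serpin differences of that sort was not tested.

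Serpinb10 and Serpinb13 were each detected on 6 arrays, with 2 in their best group. Just outside lay Serpinb9e, on 5 arrays with at most 1 per group, and Serpinb9d, on 3. Of the 42 members, 18 were detected on every array and 21 had a mean signal above that of the median gene. In the Gad1 sort 17 of these 21 rose and 1 fell, and of the 21 dimmer members 8 rose.

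The lists of target proteases, other inhibitors and receptors were chosen with earlier results of these data known, and they are given by counts, against 13.4% to 19.2% of all genes higher and 15.6% to 23.8% lower over the 6 sorts. Of 53 measured target proteases (59 listed), 31 rose and 1 fell in Gad1, 23 and 3 in Ins2, 22 and 3 in Cea1, 20 and 8 in Tspan8, 7 and 22 in Pdpn, and 5 and 26 in Gp2. The share higher was 58.5% in Gad1 and 9.43% in Gp2, and the share lower was 49.1% in Gp2 and 15.1% in Tspan8, the last under the 23.8% of all genes. Prss27, a trypsin-like serine protease, rose by 5.33 in Tspan8 and by 3.44 in Cea1 on the log2 scale. Klk5, a kallikrein of skin shedding, fell by 3.47 in Gp2 and by 2.13 in Pdpn. The rises in Gp2-positive cells included Prss16 (6.05) and Ctsl (4.24), both known proteases of cortical thymic epithelium. Inhibitors outside the family gave 31 higher and 2 lower of 51 measured in Gad1, 18 and 7 in Ins2, 14 and 8 in Cea1, 17 and 18 in Tspan8, 6 and 19 in Pdpn, and 5 and 27 in Gp2 (60.8% higher in Gad1, 52.9% lower in Gp2). Spink5, the kallikrein inhibitor of skin, rose by 4.35 in Tspan8, 3.14 in Ins2 and 2.56 in Cea1. Among 11 clearance receptors, which take up serpin and protease complexes, 5 rose and 1 fell in Gad1, 5 and 0 in Ins2, 4 and 1 in Pdpn, 3 and 1 in Cea1, 2 and 2 in Tspan8, and 2 and 4 in Gp2. Vldlr rose by 1.98 in Pdpn.

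Markers of other cell types and states differed in the same arrays. Of all genes, 19.2% were higher and 19.2% lower in Gad1, 13.4% and 15.6% in Cea1, and 16.8% and 17.7% in Ins2. In Tspan8 these shares were 19.2% and 23.8%, in Pdpn 18.2% and 19.1%, and in Gp2 18.0% and 21.0%. The cornified counts in Pdpn were near these shares. Of 30 measured genes of cornified keratinocytes, 23 were higher and 1 lower in Gad1, 22 and 1 in Cea1, 22 and 0 in Ins2, 25 and 1 in Tspan8, 5 and 7 in Pdpn, and 1 and 18 in Gp2. Of 14 tuft cell genes, all 14 were higher in Gad1 and in Tspan8, 13 in Cea1 and 10 in Ins2, while 12 were lower in Pdpn, and in Gp2 1 was higher and 9 lower. The summed tuft signal was 25670 to 43192 in Cea1-positive against 1233 to 1345 in Cea1-negative cells. Of 12 hepatocyte genes, 10 were higher and 0 lower in Gad1, 8 and 0 in Ins2, 4 and 2 in Cea1, 4 and 6 in Tspan8, 0 and 8 in Pdpn, and 1 and 7 in Gp2. Clade A, of which many serpins but not all are plasma proteins made by the liver, had 6 higher and 5 lower in Tspan8. There the median difference of the hepatocyte genes was -0.47, while their summed signal was 6989 to 7879 in positive against 5599 to 5746 in negative cells. Of 13 proliferation genes, 11 were lower in Gad1, 12 in Cea1, 11 in Ins2 and 11 in Tspan8, with none higher, and 9 were higher in Gp2 and 4 in Pdpn, with none lower. Of 8 genes of basal, Ccl21-type mTECs, 7 were higher and 1 lower in Pdpn, with a summed signal of 51428 to 61877 against 13152 to 18198. Median summed signals of cytotoxic, mast cell and neutrophil genes were higher in Gad1-positive (18519 against 8722) and Cea1-positive cells (20295 against 14538). They were lower in Pdpn (5450 against 14322), Gp2 (5094 against 13621), Ins2 (8562 against 12707) and Tspan8 (7560 against 14152). For mTEC maturation genes they were 41840 against 73607 in Gp2. They were also lower in Pdpn, Tspan8 and, with overlap, Cea1, and higher in Gad1 and Ins2. The part of these cell types and states in the serpin differences was not tested.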

How the data were processed

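Total RNA of sorted mTECs was measured on Illumina mouse bead arrays. The authors deposited unnormalized intensities and a detection p-value per probe, per the file headers, for 46089 probes, and a table of their own normalized intensities; the software is not given in the sources used here. Of 35 arrays, 34 were used: the intensity column of Ins2-negative replicate 2 repeats another array's detection p-values. Probes of the unnormalized table were matched to named probes of the authors' table by their profile over arrays (all 74 family probes matched; Spearman 0.989 on the array left out of matching), and names follow the platform annotation and RefSeq. Intensities were background-corrected and quantile-normalized with neqc (limma 3.58.1, R 4.3.3, offset 16). Probes detected (p under 0.05) on at least 2 arrays of a group were kept (34083), with the probe of highest mean signal for each gene (18090 genes). The 12 group means were fitted together (lmFit, eBayes with trend, 22 residual degrees of freedom), with Benjamini-Hochberg adjustment over all genes of a sort; called means an adjusted p under 0.05. All adjusted p-values are limma's, and differences are log2, positive minus negative. "At least" folds are given where no array of the other group detected the gene. Signals of that group below the lowest detected signal of their array were raised to it, and higher ones were kept.

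Named members were Serpinb11 and its 5 most correlated members, up to 4 rises and 4 falls a sort without overlap, those called one way in 4 sorts or both ways in 2, the brightest of each clade and up to 4 called in no sort; remaining members are given for completeness. Members and lists were chosen with earlier results of these data known. The labels do not say that replicates came from separate animals, so p-values measure the spread between these samples, pooled over the 12 groups. The 2 Gp2-positive arrays lay far apart for Serpina12 (SD 0.65), Serpinb12 (0.73), Serpine2 (0.85) and Serping1 (0.76). They lay close for Serpinb6a (0.16) and Serpinb11 (0.04). Intervals and p-values of the Gp2 sort therefore do not reflect that group's own spread. Same-numbered Pdpn samples deviated together (correlations 0.20, 0.16 and 0.21), but the labels state no pairing in any sort. The main fit therefore has no block, and a fit with the replicate number as a block is given as an alternative. On simulated data for the Pdpn sort (18090 genes), log2 changes of 0.5, 1, 2 and 3 were recovered in 20, 90, 100 and 100% of cases. Alternatives covered background correction, scaling, filter, probe choice, arrays fitted, weights, fold minimum, block and arrays left out. Python 3.11.15 made the summaries.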

Additional observations from a re-analysis of the deposited data

Results flagged for a closer look

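For 31 of the 42 members the 6 differences were unequal by limma's F test (background 61.5% of all genes), so the direction or size differed between the sorts. Among the members described above, the smallest adjusted p-values of that test were 1.3e-18 for Serpina7, 1.7e-16 for Serpinh1, 2e-15 for Serpinf1, 1.2e-15 for Serpinb12 and 1.6e-14 for Serpinb11. Serpina7 and Serpinb12 were called in all 6 sorts and in both directions, Serpinh1 and Serpinf1 rose in Pdpn and fell in Tspan8, and Serpinb11 rose in every sort except Gp2. The Serpinf1 changes rest on 1 of its 2 probes. In the rest of clade A the adjusted p-values of the F test were 2.4e-11 for Serpina10, 4.4e-07 for Serpina11, 9.8e-12 for Serpina12, 1.1e-11 for Serpina1b, 0.00054 for Serpina1c, 1.8e-11 for Serpina1d, 1.9e-06 for Serpina1e, 1.6e-06 for Serpina3b, 4.7e-05 for Serpina3f, 5.4e-13 for Serpina3n and 8.1e-06 for Serpina9. In clade B they were 4.5e-12 for Serpinb1a, 1.4e-12 for Serpinb2, 7.9e-13 for Serpinb3a, 8.7e-11 for Serpinb3c, 0.00029 for Serpinb6, 6.7e-14 for Serpinb6a and 6.9e-06 for Serpinb6c. In the other clades they were 0.00072 for Serpind1, 4.1e-12 for Serpine2 and 1.4e-11 for Serping1. The explanation of these differences was not tested.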

How the results depend on the processing

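The few arrays of each group (2 or 3) set how precise these values are. Of 280 recomputed counts and clade medians, 238 stayed within the replicate spread or within 1.5 times the count, and 42 did not. The cause was not tested. Medians are given as clade A, clade B and other clades. Without background correction they were -0.072 and -0.17 (A, B) in Pdpn, -0.092 (B) in Gp2, 0.28, 0.46 and 0.14 in Gad1, 0.14 (B) in Cea1, 0.18 (B) in Ins2, and 0.092, 0.15 and -0.26 in Tspan8. With the authors' normalized values they were -0.11 (A) in Pdpn, -0.069 (B) in Gp2, 0.34, 0.51 and 0.14 in Gad1, 0.12 (B) in Cea1, 0.064 and 0.17 (A, B) in Ins2, and 0.11, 0.18 and -0.38 in Tspan8. With median scaling they were -0.57 (A) and -0.74 (other) in Gp2 and 0.0545 (B) in Ins2, while the median of all genes moved to -0.23 and -0.25. Without the detection filter clade B was at -0.0215 in Pdpn, -0.068 in Gp2, 0.080 in Gad1, 0.049 in Cea1, 0.0525 in Ins2 and -0.0016 in Tspan8, and clade A at 0.051 in Tspan8. Clade B was at -0.50 in Gp2 and 0.66 in Cea1 both with detection on every array of a group and with a detection p under 0.01, and at 0.62 in Gad1 with every probe on its own. The Ins2 sort gave 15 calls on its own arrays, and a 2-fold minimum left 15 in Pdpn, 16 in Gad1, 13 in Cea1 and 13 in Ins2. Serpinb12 turned in Ins2 with median scaling (-0.054). Leaving out 1 array, calls ranged from 21 to 23 in Pdpn, 21 to 23 in Gp2, 22 to 26 in Gad1, 18 to 21 in Cea1, 17 to 22 in Ins2 (17 without Ins2-negative replicate 1) and 24 to 27 in Tspan8, clade A in Gp2 from -0.62 to -0.016, and clades A and B in Ins2 from 0.28 to 0.495 and 0.40 to 0.70. With the replicate number as a block, 24, 24, 28, 21, 24 and 29 members were called in Pdpn, Gp2, Gad1, Cea1, Ins2 and Tspan8, which gained 10 calls and lost 5, among the lost Serpinb6c in Gp2 (adjusted p = 0.11) and Serpinb6 in Ins2 (0.17). In every sort the labels give only a shared number. Same-numbered correlations were 0.16 to 0.21 in Pdpn, 0.23 and 0.11 in Gp2 (2 pairs) and 0.08 to 0.22 in Cea1. They were at most 0.11 in the other 3 sorts, and pairing is not settled in any sort. All 3 negative samples of the Pdpn, Cea1 and Tspan8 sorts correlated best with the positive sample of their number. So did 2 of 3 in Gad1, 1 of 2 in Ins2 and 2 of 3 in Gp2, where negative replicate 3 has no positive counterpart. These matches are a hint from the data and not the design. The block added Serpina1a, Serpinb10 (both Tspan8) and Serpinc1 (Ins2), which were otherwise called in no sort. Of 127 calls of named members, 102 held under every setting but the 2-fold minimum and 22 were lost with 1 array out. A chip block was not run, since no chip is given.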
